A study of Mus musculus with 15 samples.

Results

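Shank, Homer and Dlgap proteins are the stacked scaffolds of the excitatory postsynaptic density. The 10 genes described here are the rows of the deposited table whose symbol is Shank1, Shank2, Shank3, Homer1, Homer2, Homer3, Dlgap1, Dlgap2, Dlgap3 or Dlgap4, 10 of 26595 genes, and they were chosen by name and not by their values. Their RNA was followed in 15 RNA-seq libraries of mouse brain. The groups were striatum of Slc1a4 -/- mice (KO striatum, 3 libraries), striatum of wild-type mice (WT striatum, 4), cerebral cortex of Slc1a4 -/- mice (KO cortex, 4) and cerebral cortex of wild-type mice (WT cortex, 4). All mice were male, of the C57Bl/6 strain and 5 months old. Slc1a4 encodes ASCT1, a transporter of serine, alanine and other small neutral amino acids. The labels give neither the deleted stretch of Slc1a4 nor whether replicates came from separate animals, so the p-values below measure only the spread between these samples. In bulk tissue, fewer cells of a type and less RNA per cell cannot be told apart.

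At an excitatory synapse, membrane-associated guanylate kinases such as PSD-95 hold glutamate receptors at the membrane, Dlgap proteins (also called GKAP or SAPAP) bind beneath them, Shank proteins bind Dlgap, and Homer proteins link Shank to metabotropic glutamate receptors and to calcium channels of the internal stores. In mice, loss of Shank3 or of Dlgap3 disturbs synapses between cortex and striatum and leads to excessive grooming, and SHANK genes are associated with autism in people. Homer1 also makes a short isoform as an immediate early gene, which lacks the coiled coil of the long forms and loosens the links they make.

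The deleted gene was low in every KO library. Slc1a4 had 158 to 344 normalized counts in KO striatum, against 1237 to 1726 in WT striatum, and 249 to 308 in KO cortex, against 1494 to 1797 in WT cortex. Libraries held 22990233 to 30276815 counted reads. Markers were called by the rule given in the next paragraph. Of 15 markers of striatal projection neurons, 14 were called higher in striatum than in cortex in KO and 15 in WT. All 15 had a log2 fold change above 0 in each genotype, and none of the 15 was at 0 throughout. Of 13 markers of cortical excitatory neurons, 11 were called lower in striatum in each genotype, and 12 had a log2 fold change below 0. The 1 marker called higher in striatum was Bcl11b, a transcription factor that striatal neurons express too. The striatal libraries were not alike. KO striatum replicate 4 and WT striatum replicate 5 had summed choroid plexus marker counts of 91069 and 148269, against 1959 to 6998 in the other striatal libraries. KO striatum replicate 4 and WT striatum replicate 8 had summed thalamic, septal and pallidal marker counts of 54195 and 34019, against 10049 to 17172 in the others. For the genes whose values these libraries set apart, tissue differences are also given without them.

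All 10 scaffold genes passed the filter on low values, and striatum differed from cortex far more than KO from WT. In WT mice, 7 of the 10 genes were lower in striatum than in cortex, none was higher, and Shank3, Homer3 and Dlgap3 did not pass the test. The call rule was a limma p below 0.05 after Benjamini-Hochberg adjustment over all 17030 genes tested, and 25.7% of those genes were called lower and 24.9% higher in WT striatum, 50.5% in all. In KO mice 7 were again lower in striatum, Shank1, Shank2, Homer1, Homer2, Dlgap1, Dlgap2 and Dlgap4, and none was higher, where 19.5% of all genes were called lower and 18.4% higher, 37.9% in all. The median log2 fold change of the 10 genes was -0.65 in WT and -0.89 in KO, against 0.01 and 0.00 for all genes tested. Levels are given as normalized counts, that is, reads divided by a size factor for each library. In WT, 6 genes had all striatal libraries below all cortical ones (24.3% of all genes did so in that direction), and in KO 8 genes did (21.4% of all genes).

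**Figure D1:**
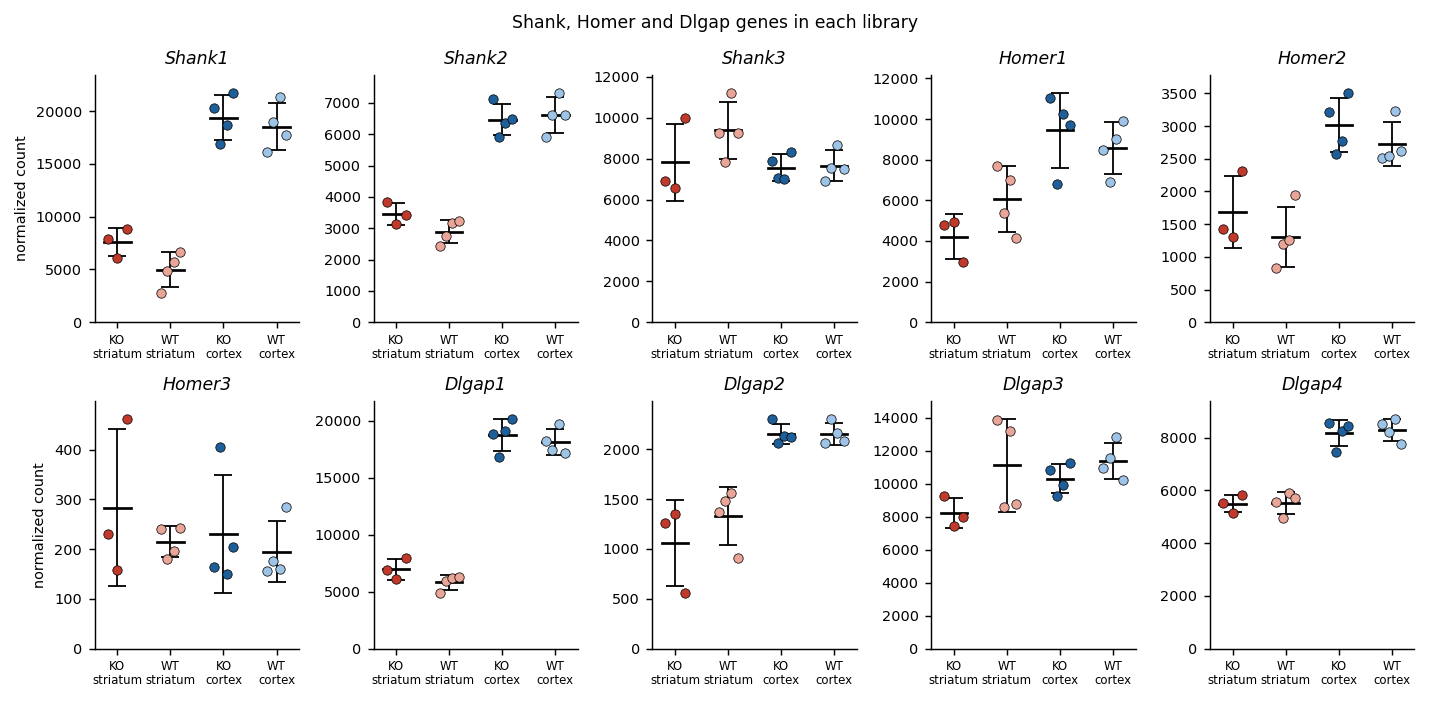
Normalized count (linear axis from 0) of each gene in each library, by group. Points are libraries, the thick bar is the mean and the whiskers are 1 SD (n = 3 for KO striatum and 4 for each other group). Shank1, Shank2, Homer2, Dlgap1, Dlgap2 and Dlgap4 lie lower in striatum than in cortex in both genotypes without overlap, while Shank3 and Homer3 overlap between tissues.

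**Figure D2:**
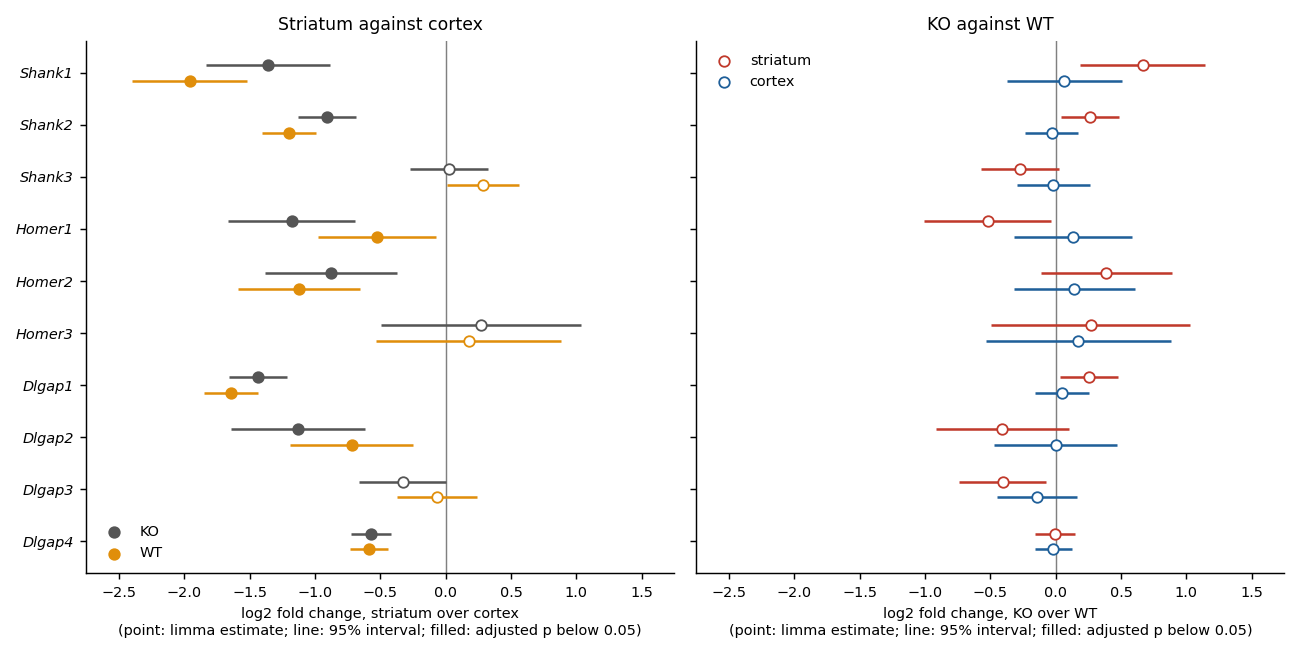
Log2 fold change of each gene from limma, striatum over cortex in KO and in WT (left panel) and KO over WT in striatum and in cortex (right panel). Points are estimates, lines 95% intervals, and filled points have an adjusted p below 0.05. On the left, 7 genes are filled in each genotype, and on the right none is.

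Shank proteins are the lowest layer of the scaffold and tie the receptor complexes to the actin cytoskeleton. The 3 paralogs did not share 1 pattern across tissues: Shank1 and Shank2 were lower in striatum, and Shank3 was not. Shank1 lies at chr7:44310253-44360572 on the plus strand (GRCm38, GENCODE M21), and its protein enlarges the heads of dendritic spines. Shank1 had 7883, 6123 and 8817 normalized counts in KO striatum, 2781, 4813, 5683 and 6663 in WT striatum, 20329.6, 16866, 18648 and 21735 in KO cortex and 16103, 18957, 21356 and 17770.3 in WT cortex. Every striatal library was below every cortical library, and WT striatum replicate 5 was the lowest of all. Striatum over cortex gave a log2 fold change of -1.36 in KO (SE 0.22, adjusted p = 0.000281) and -1.96 in WT (SE 0.21, adjusted p = 2.89e-06), so WT striatum held 25.7% of the cortical level on this scale. Without WT striatum replicate 5, the WT value was -1.70.

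Shank2 (chr7:144001928-144424494, plus strand) encodes the paralog that is prominent in cerebellar and hippocampal synapses. Shank2 had 3822, 3122 and 3436 normalized counts in KO striatum, against 7119, 5906, 6362 and 6490.2 in KO cortex. It had 2435, 2754, 3153 and 3231 in WT striatum, against 5921, 6610.2, 7319 and 6604 in WT cortex. The tissues did not overlap in either genotype. Shank2 was lower in striatum, at a log2 fold change of -0.90 in KO (SE 0.10, adjusted p = 1.35e-05) and -1.20 in WT (SE 0.10, adjusted p = 2.05e-07).

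Shank3 (chr15:89499623-89560261, plus strand) is the paralog with the best known role in the striatum. It had 6923, 6577 and 9982 normalized counts in KO striatum, against 7883, 7069.9, 6993 and 8315 in KO cortex. In WT it had 9234, 7831, 11219 and 9265 in striatum, against 6906, 7557, 8692 and 7507 in cortex. The tissues overlapped in both genotypes. Striatum over cortex was at a log2 value of 0.03 in KO (SE 0.14, 95% interval -0.27 to 0.33, adjusted p = 0.898) and 0.29 in WT (SE 0.13, 95% interval 0.01 to 0.56, adjusted p = 0.0791). Without KO striatum replicate 4 the KO value changed sign to -0.16 (adjusted p = 0.332). The WT difference passed the test in 7 of 32 other settings, among them the fit without KO striatum replicate 4 (0.29, adjusted p = 0.0239) and the fit without WT striatum replicate 6 (0.37, adjusted p = 0.0351). Shank1 and Shank3 share 339 and 271 exonic bases with 1700008O03Rik and Gm15609 on the opposite strand. The strand setting of the counting is not given in the sources used here, and those neighbours averaged 28.7 and 11.3 normalized counts over all libraries.

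RefSeq starts of 4 scaffold genes are shown because they cover both patterns. Shank3 and Dlgap3 were not called between tissues, and Homer1 and Dlgap1 were lower in striatum. RefSeq promoters (GRCm38.p6, 250 bases before to 50 after a start) were found for 7 of the 10 genes, and Shank1, Shank2 and Dlgap2 had no entry. Each was searched on both strands for 4 motifs of neuronal activity or lineage factors. Those were the cAMP response element TGACGTCA (in 1.79% of 32851 mouse promoters of this length), its shorter core TGACG, which the full element also contains (20.8%), the EGR box GCGTGGGCG (0.612%) and the E-box CAGATG (17.2%). Capitals mark a match, and a match read on the other strand appears as its reverse complement.
Shank3, chr15:89499358-89499657, plus strand: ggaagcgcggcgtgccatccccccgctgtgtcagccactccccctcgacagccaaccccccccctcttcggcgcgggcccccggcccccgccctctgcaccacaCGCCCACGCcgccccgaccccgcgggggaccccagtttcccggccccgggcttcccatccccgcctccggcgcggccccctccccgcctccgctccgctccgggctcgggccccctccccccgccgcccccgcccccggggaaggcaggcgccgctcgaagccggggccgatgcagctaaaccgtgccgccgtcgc
Dlgap3, chr4:127172630-127172929, plus strand: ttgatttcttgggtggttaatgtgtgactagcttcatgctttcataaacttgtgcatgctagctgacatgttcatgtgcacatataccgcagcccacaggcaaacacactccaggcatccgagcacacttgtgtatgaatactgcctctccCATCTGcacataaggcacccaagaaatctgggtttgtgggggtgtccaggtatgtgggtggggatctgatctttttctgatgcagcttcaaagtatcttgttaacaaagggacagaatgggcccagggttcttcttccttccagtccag
Homer1, chr13:93303507-93303806, plus strand: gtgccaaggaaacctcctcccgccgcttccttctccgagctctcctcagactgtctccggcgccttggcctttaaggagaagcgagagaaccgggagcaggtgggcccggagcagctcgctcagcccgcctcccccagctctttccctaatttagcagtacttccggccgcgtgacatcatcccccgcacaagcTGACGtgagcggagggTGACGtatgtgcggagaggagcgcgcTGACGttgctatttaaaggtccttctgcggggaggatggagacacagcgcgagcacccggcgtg
Dlgap1, chr17:69968823-69969122, plus strand: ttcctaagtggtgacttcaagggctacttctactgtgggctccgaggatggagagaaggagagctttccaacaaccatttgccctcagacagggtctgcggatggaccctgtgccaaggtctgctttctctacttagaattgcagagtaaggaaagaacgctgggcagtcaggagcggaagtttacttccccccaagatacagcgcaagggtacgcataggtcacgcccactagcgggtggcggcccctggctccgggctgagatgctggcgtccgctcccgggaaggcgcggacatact
The Shank3 stretch is 81.0% G or C with 40 CpG dinucleotides and holds 1 EGR box. The Dlgap3 stretch is 47.7% G or C with 2 CpG and holds 1 CAGATG E-box. The first listed Homer1 start, shown here, holds 3 copies of TGACG and 26 CpG, and the first listed Dlgap1 start holds none of the 4 motifs and 15 CpG. Both genes have a second listed start, chr13:93307784-93308083 for Homer1 and chr17:70561497-70561796 for Dlgap1. Each of those holds none of the 4 motifs and 7 CpG. The median over all promoters was 52.7% G or C and 7 CpG. The Shank3 and Dlgap1 stretches span the GENCODE start of their gene, at 89499623 and 69969073. The Dlgap3 and Homer1 stretches lie inside their gene, downstream of GENCODE starts at 127169204 and 93299635 that were not searched. The unlike stretches of Shank3 and Dlgap3 thus compare a start at the gene's edge with an internal one. These matches are letters in a window, and binding was not measured.

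Homer proteins bind proline-rich stretches of Shank and of receptors through their EVH1 domain and form tetramers through a coiled coil. Homer1 and Homer2 were lower in striatum, and Homer3 was not called. Homer1 (chr13:93299635-93405129, plus strand) had 4788, 4918 and 2942 normalized counts in KO striatum, against 11027, 6816, 10244 and 9715 in KO cortex. It had 7706, 5359.8, 7019 and 4168 in WT striatum, against 8465, 6885, 9016 and 9907 in WT cortex. The KO tissues did not overlap, whereas 2 WT striatal libraries reached the range of WT cortex. Homer1 was lower in striatum, at a log2 fold change of -1.18 in KO (SE 0.23, adjusted p = 0.000977) and -0.53 in WT (SE 0.21, adjusted p = 0.049). The WT call was marginal: it held in 15 of 32 other settings, whose adjusted p ran from 0.00684 to 0.157. Leaving out WT striatum replicate 8 gave -0.36 with an adjusted p of 0.157, and the call was also lost without KO cortex replicate 1, 3 or 4, WT cortex replicate 5, 7 or 8, KO striatum replicate 2 or WT striatum replicate 6. Without KO striatum replicate 4 the KO value was -0.94 (adjusted p = 0.00489). Gene counts pool the short immediate early isoform of Homer1 with the long isoforms.

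Homer2 (chr7:81600481-81707527, minus strand) encodes a constitutive coiled-coil Homer. It had 1433, 1306 and 2317 normalized counts in KO striatum, against 3208, 2578, 2775 and 3508 in KO cortex. WT striatum had 833, 1189.8, 1253 and 1943, against 2517, 2547, 3236 and 2617 in WT cortex. Every striatal library was below every cortical one of its genotype, and the highest striatal values were those of KO replicate 4 and WT replicate 8. Homer2 had a log2 fold change of -0.88 in KO (SE 0.23, adjusted p = 0.00881) and -1.12 in WT (SE 0.22, adjusted p = 0.000623). Without KO replicate 4 the KO value was -1.13 (adjusted p = 0.00165), and without WT replicate 8 the WT value was -1.34 (adjusted p = 6.61e-05).

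Homer3 (chr8:70282827-70294361, plus strand) is the Homer best known from Purkinje cells of the cerebellum, and it was the lowest of the 10 genes per kilobase in every group. Its counts were 231, 159 and 462 in KO striatum, 241, 179.8, 196 and 242 in WT striatum, 164, 405, 150.3 and 204 in KO cortex and 156, 176, 160.0 and 286 in WT cortex. The groups overlapped throughout. For Homer3 the log2 fold change was 0.27 in KO (SE 0.36, adjusted p = 0.583) and 0.18 in WT (SE 0.33, adjusted p = 0.681). Without KO striatum replicate 4, the library at 462, the KO value changed sign to -0.15 (adjusted p = 0.773). Homer3 is uncertain, because it shares 874 exonic bases with Ddx49 on the opposite strand, which averaged 562 normalized counts.

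In the striatum, Homer1, Homer2 and Dlgap2 set the same 2 libraries apart. KO replicate 4 and WT replicate 8, the 2 libraries with the highest thalamic, septal and pallidal marker sums, had the highest Homer2 and the lowest Homer1 and Dlgap2 counts of the 7 striatal libraries. In KO replicate 4, Homer2 reached 2317 and Homer1 was at 2942, against 1306 and 1433 for Homer2 and 4788 and 4918 for Homer1 in the other KO striatal libraries. In WT replicate 8, Homer2 reached 1943 and Homer1 was at 4168, against 833 to 1253 and 5359.8 to 7706 in the other WT striatal libraries. KO replicate 4 and WT replicate 8 also had the highest summed oligodendrocyte marker counts of the 7 libraries, 302299 and 295041. Their summed striatal projection neuron marker counts were the lowest, 70029.5 and 135040. The part that any of these cell types plays in the result was not tested.

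Dlgap proteins bind the guanylate kinase domain of PSD-95 on 1 side and the PDZ domain of Shank on the other. Dlgap1, Dlgap2 and Dlgap4 were lower in striatum, and Dlgap3 was not called. Dlgap1 (chr17:69969073-70821413, plus strand) encodes GKAP. It had 6868, 6084 and 7919 normalized counts in KO striatum, against 18881, 16877, 19162 and 20158 in KO cortex. It had 4867, 5922, 6226 and 6325 in WT striatum, against 18259.9, 17428, 19755 and 17161 in WT cortex. The gap between tissues was wide in both genotypes, with the highest striatal library at 7919 and the lowest cortical one at 16877. The log2 fold change was -1.44 in KO (SE 0.10, adjusted p = 1.78e-07) and -1.64 in WT (SE 0.10, adjusted p = 1.14e-08). Of the 10 genes, Dlgap1 had the smallest p in both genotypes, and it ranked 70 and 60 among the 17030 genes tested in KO and WT.

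Dlgap2 (chr8:14095865-14847680, plus strand) had 1260.2, 1346 and 559 normalized counts in KO striatum, against 2299, 2059.7, 2131 and 2121 in KO cortex. WT striatum had 1374, 1480.4, 1560.4 and 911, against 2059.5, 2302, 2164 and 2080.4 in WT cortex. The cortical libraries lay close together and all above the striatal ones, among which KO replicate 4 was the lowest. The log2 fold change was -1.13 in KO (SE 0.24, adjusted p = 0.0019) and -0.72 in WT (SE 0.22, adjusted p = 0.0138). Without KO striatum replicate 4 the KO value was -0.72 (adjusted p = 0.00217), and without WT striatum replicate 8 the WT value was -0.55 (adjusted p = 0.0472).

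Dlgap3 (chr4:127169204-127237022, plus strand) encodes SAPAP3, the Dlgap protein known from striatal synapses. Its counts were 9245, 7427 and 8003 in KO striatum, against 10817, 9259, 9935 and 11262 in KO cortex. They were 13846, 8604, 13221 and 8769 in WT striatum, against 10933, 11554, 12850.1 and 10232 in WT cortex. WT striatum fell into 2 high and 2 low libraries on either side of WT cortex, whereas KO striatum lay just below KO cortex. The log2 fold change was -0.33 in KO (SE 0.16, 95% interval -0.66 to 0.00, adjusted p = 0.111) and -0.07 in WT (SE 0.14, 95% interval -0.38 to 0.24, adjusted p = 0.725). The KO difference passed the test only when the 2 KO groups were fitted alone (adjusted p = 0.0374), 1 of 32 other settings.

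Dlgap4 (chr2:156613705-156764363, plus strand) varied least of the 10 genes within the striatal groups. It had 5535, 5162 and 5813 normalized counts in KO striatum, against 8566, 7477, 8268 and 8449 in KO cortex. It had 5553, 4955, 5903 and 5710.4 in WT striatum, against 8504, 8209, 8704 and 7757 in WT cortex. Its tissues did not overlap, and its fold changes were nearly equal in both genotypes. The log2 fold change was -0.57 in KO (SE 0.07, adjusted p = 3.07e-05) and -0.59 in WT (SE 0.07, adjusted p = 6.03e-06).

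The loss of Slc1a4 was not followed by a called change in any of the 10 genes. In cortex, limma called 0 of 10 (0.00587% of all genes were called), 0 had an unadjusted p below 0.05, and the adjusted p was 1 for each. Log2 fold changes of KO over WT cortex ran from -0.14 for Dlgap3 to 0.17 for Homer3. The narrowest 95% interval, that of Dlgap4, was -0.16 to 0.12, and the widest, that of Homer3, was -0.53 to 0.88. In striatum, limma again called 0 of 10 (0.0763% of all genes), but 5 had an unadjusted p below 0.05, as did 2598 of the 17030 genes tested. Of the 10 genes, 1 had such a p without WT striatum replicate 5 and when the 2 striatal groups were fitted alone, and 7 had one without WT striatum replicate 8. DESeq2, edgeR and voom on recovered reads also called none of the 10 in either tissue. The KO and WT libraries of all 10 genes overlapped in both tissues, whereas 8.07% of all genes did not overlap in striatum and 4.02% did not in cortex.

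The 5 genes with an unadjusted p below 0.05 in striatum were Shank1, Shank2, Dlgap1, Dlgap3 and Homer1. Shank1 had a log2 fold change of KO over WT striatum of 0.66 (SE 0.22, unadjusted p = 0.00955, adjusted p = 0.217), and 2 of 3 KO libraries exceeded all 4 WT libraries. Shank2 was at 0.26 (SE 0.10, adjusted p = 0.263) and Dlgap1 at 0.25 (SE 0.10, adjusted p = 0.274). Dlgap3 was at -0.40 (SE 0.16, adjusted p = 0.254) and Homer1 at -0.52 (SE 0.23, adjusted p = 0.296). None passed the correction. Without KO striatum replicate 4, Homer1 was at -0.28 and Dlgap1 at 0.16, Dlgap2 was at 0.00 in place of -0.41, and Shank3 was at -0.46 (adjusted p = 0.0524) in place of -0.28. Without WT striatum replicate 5, Shank1 was at 0.41 and Dlgap1 at 0.17.

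The striatal groups also differed in their markers. All 15 striatal projection neuron markers had a log2 fold change of KO over WT striatum below 0 (median -0.82, 0 called). For KO over WT cortex they were also all below 0 (median -0.35, 0 called). Their summed counts were 155556, 149717 and 70029.5 in KO striatum, against 288042, 201284, 248197 and 135040 in WT striatum. Of the 13 cortical excitatory markers 10 were above 0 (median 0.90), and 1 was called, Neurod2 at 2.30 (SE 0.38, adjusted p = 0.03). Their mean log2 deviation from the tissue mean was 0.78, 0.23 and 0.46 in KO striatum, against -0.69, -0.70, 0.01 and -0.08 in WT striatum. Their summed counts overlapped, at 27816, 19907 and 23156 in KO striatum, against 21248, 18832, 21784 and 19771 in WT striatum. Markers of some other cell types lay mostly on 1 side of 0 for KO over WT striatum, with none called. All 10 oligodendrocyte markers and 7 of 8 microglial markers were below 0, and 8 of 10 choroid plexus markers were above 0. Their summed counts overlapped between KO and WT striatum. Oligodendrocyte sums were 201635, 147355 and 302299 in KO striatum, against 213589 to 295041 in WT striatum. Choroid plexus sums ran from 3086 to 91069 in KO striatum and from 1959 to 148269 in WT striatum. Microglial sums ran from 11531 to 14050.5 in KO striatum and from 13452.5 to 15311 in WT striatum. The part of these markers in the values of Shank1, Shank2, Dlgap1, Dlgap3 and Homer1 was not tested. The KO effect did not pass the test of a difference between tissues for any of the 10 genes (0.00587% of all genes were called, and 0 of the 10 had an unadjusted p below 0.05). That count was 3 without KO striatum replicate 3 or without WT striatum replicate 8, 4 without both KO striatum 4 and WT striatum 8, and 2 with the replicate block, with sample weights or without WT striatum replicate 7. The largest differences between the KO effect in striatum and that in cortex were -0.65 for Homer1 (SE 0.31) and 0.60 for Shank1 (SE 0.30), both with an adjusted p of 0.961.

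Levels were compared between genes only as normalized counts per kilobase of annotated exon. Dlgap3 had the highest mean level of the 10 genes in every group, at 1819 ± 205 in KO striatum, 2457 ± 622 in WT striatum, 2282 ± 198 in KO cortex and 2519.9 ± 246 in WT cortex (SD, n = 3, 4, 4 and 4). In cortex Shank1 came next, at 1845 ± 200.3 in KO and 1764 ± 210.0 in WT, and in KO cortex its libraries overlapped those of Dlgap3. In striatum Shank3 came next, at 852 ± 204 in KO and 1022 ± 152 in WT, and its libraries overlapped those of Shank1 in KO but lay above those of Dlgap4, the next gene, in WT. From Dlgap1 down to Shank2 in cortex, and from Dlgap4 down to Homer3 in WT striatum, each gene overlapped its neighbour in the order. Homer3 was last in all 4 groups, at 56.5 to 82.5. The places below Dlgap3 depended on the length taken for each gene. With the longest annotated transcript as length, Shank1 had rank 3 in both cortical groups and Shank3 had rank 3 in KO striatum.

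Within the Shank family the balance differed between tissues. Shank3 made up 44.7% ± 3.95 of the summed Shank level per kilobase in KO striatum, 58.2% ± 6.74 in WT striatum, 25.2% ± 0.845 in KO cortex and 25.99% ± 0.483 in WT cortex (SD). Shank1 made up 38.1% in KO striatum, 26.5% in WT striatum, 56.4% in KO cortex and 54.9% in WT cortex. The leading Shank gene was thus Shank1 in every cortical library and Shank3 in every striatal library, in KO replicate 2 with 40.5% against 40.4% for Shank1. The ratio of Shank3 to Shank1 per kilobase was 1.005, 1.23 and 1.30 in KO striatum, against 3.80, 1.86, 2.26 and 1.59 in WT striatum. It was 0.444, 0.480, 0.429 and 0.438 in KO cortex, against 0.491, 0.456, 0.466 and 0.483 in WT cortex. KO and WT did not overlap in striatum and overlapped in cortex. The ratio was picked after its values were seen, and Shank1 and Shank3 each overlapped between KO and WT striatum. Of all single genes, 8.07% did not overlap there, and no such share was computed for ratios.

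Among the Dlgap genes, Dlgap3 made up 59.9% ± 1.99 of the summed level per kilobase in KO striatum, 66.6% ± 5.24 in WT striatum, 49.0% ± 1.02 in KO cortex and 51.7% ± 1.39 in WT cortex (SD). The ratio of Dlgap3 to Dlgap1 was 5.33, 4.83 and 3.999 in KO striatum, against 11.3, 5.75, 8.40 and 5.49 in WT striatum. In cortex it was 2.27, 2.17, 2.05 and 2.21 in KO, against 2.37, 2.62, 2.57 and 2.36 in WT. The ratio was lower in every KO library than in any WT library of its tissue, by a small margin in both tissues. Of all single genes, 8.07% did not overlap in striatum and 4.02% in cortex, and no such share was computed for ratios. Both ratios were picked after their values were seen and were not tested. They do not depend on the scaling of a library, but their size depends on the length taken for each gene. With the longest annotated transcript as length, Dlgap3 made up 45.5% in KO striatum, 53.4% in WT striatum, 33.9% in KO cortex and 36.4% in WT cortex, and Dlgap1 made up 36.2% in KO cortex and so exceeded Dlgap3 there. Homer1 was the leading Homer gene in each group mean, at 61.9% ± 16.02 in KO striatum, 74.4% ± 9.52 in WT striatum, 71.6% ± 5.72 in KO cortex and 72.3% ± 2.31 in WT cortex (SD).

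**Figure D3:**
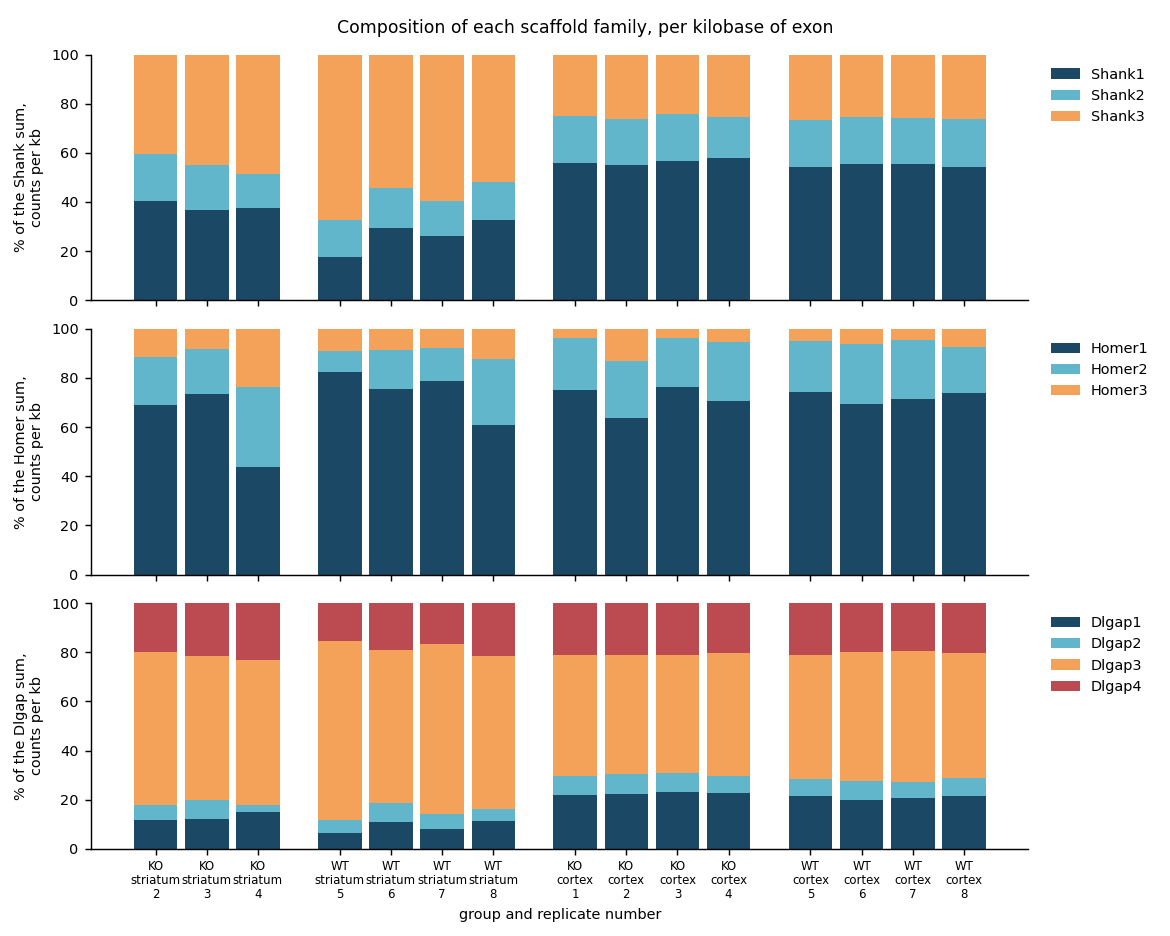
Share of each gene in the summed level of its family, in normalized counts per kilobase of annotated exon, for each library (bars stack to 100%, numbers are replicates). Shank3 is the largest Shank segment in all striatal bars and Shank1 in all cortical bars.

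**Figure D4:**
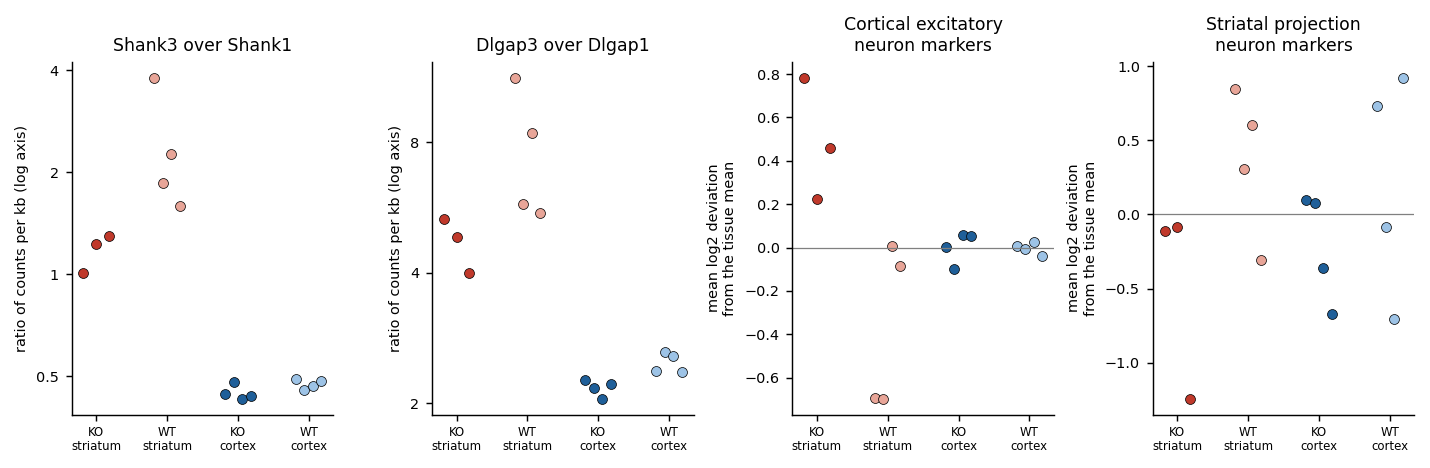
Ratio of Shank3 to Shank1 and of Dlgap3 to Dlgap1 per kilobase (log axes), and the mean log2 deviation of cortical excitatory and of striatal projection neuron markers from the mean of their tissue (linear axes), by group with a point for each library. The Shank3 to Shank1 ratio is 1.005 to 1.30 in KO striatum and 1.59 to 3.80 in WT striatum. Both ratios were picked after their values were seen and were not tested. The cortical marker score is above 0.2 in the KO striatal libraries and at most 0.01 in the WT striatal ones. The summed counts of the cortical markers, which are not drawn, overlap between KO and WT striatum.

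Of 4 membrane-associated guanylate kinases that bind Dlgap, 3 were lower in striatum in KO and 1 in WT, where 19.5% of all genes were called lower in KO and 25.7% in WT, so the WT count is near the background. The gene called in both was Dlg3, which encodes SAP102, with 3691 ± 398 normalized counts in KO striatum, 3753 ± 193 in WT striatum, 5049 ± 132 in KO cortex and 5034 ± 189.5 in WT cortex (SD). Its log2 fold change was -0.46 in KO (adjusted p = 0.000133) and -0.42 in WT (adjusted p = 6.96e-05). Dlg4, which encodes PSD-95, was called in KO (-0.40, adjusted p = 0.0209) and not in WT (-0.20, adjusted p = 0.159), and it is named here after its values were seen.

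Of 13 genes of proteins that Homer ties together, 3 were higher and 4 lower in striatum in KO, and 4 were higher and 2 lower in WT. Of all genes, 18.4% were higher and 19.5% lower in KO, and 24.9% were higher and 25.7% lower in WT, so these counts lie near the background. Grm5, which encodes a metabotropic glutamate receptor, was higher in WT striatum by 0.90 (SE 0.15, adjusted p = 0.000148) on the log2 scale, where Homer1 and Homer2 were lower. In KO, Grm5 was at 0.38 (adjusted p = 0.0696) and did not pass the test. Of the ryanodine receptors, calcium release channels of the internal stores, Ryr2 was lower and Ryr3 higher in striatum, and Ryr1 was not called in either genotype. Ryr2 had 4006 ± 616 normalized counts in KO striatum, 2884 ± 545 in WT striatum, 10189 ± 393 in KO cortex and 9529 ± 1050.2 in WT cortex (SD), a log2 fold change of -1.36 in KO (adjusted p = 5.12e-06) and -1.74 in WT (adjusted p = 1.05e-07). Ryr3 had 3144 ± 963 in KO striatum, 3352 ± 319 in WT striatum, 1299 ± 203 in KO cortex and 1161 ± 304 in WT cortex (SD), a log2 fold change of 1.25 in KO (adjusted p = 0.000492) and 1.57 in WT (adjusted p = 1.98e-05).

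Of 10 other partners of Shank, 4 were lower in striatum in KO and 5 in WT, against 19.5% of all genes in KO and 25.7% in WT, and none was higher in either. Cacna1d, the calcium channel Cav1.3 whose C terminus binds Shank, was at -0.83 in KO (adjusted p = 0.000189) and -0.97 in WT (adjusted p = 1.26e-05). Sptan1, the alpha chain of brain spectrin, was at -0.58 in KO (adjusted p = 3.77e-05) and -0.60 in WT (adjusted p = 6.78e-06). Arhgef7, the exchange factor beta-PIX, was at -0.46 in KO (adjusted p = 0.000606) and -0.51 in WT (adjusted p = 8.4e-05). Cttn, the actin-binding protein cortactin, was called in WT (-0.22, adjusted p = 0.00203) and not in KO (-0.11, adjusted p = 0.112).

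Of 18 other postsynaptic density genes, 12 were lower and 1 higher in striatum in KO, and 11 were lower and 3 higher in WT, where 19.5% of all genes were called lower and 18.4% higher in KO, and 25.7% lower and 24.9% higher in WT. Kalrn, which encodes the spine protein kalirin, was at -1.77 in KO (adjusted p = 9.24e-08) and -1.72 in WT (adjusted p = 1.93e-08). Camk2a, the alpha subunit of calcium/calmodulin-dependent kinase II, had 34244 ± 6292 normalized counts in KO striatum, 34488 ± 4634 in WT striatum, 97943 ± 11565 in KO cortex and 96889.9 ± 13493 in WT cortex (SD), and its log2 fold change was -1.52 in KO (adjusted p = 2.6e-06) and -1.49 in WT (adjusted p = 7.19e-07). Lrfn2, a synaptic adhesion protein, was at -0.88 in KO (adjusted p = 0.00584) and -1.48 in WT (adjusted p = 3.29e-05), and Iqsec2, an Arf exchange factor, was at -1.19 in both (adjusted p = 1.81e-06 in KO and 4.25e-07 in WT). The median log2 fold change over the 18 genes was -0.41 in KO and -0.41 in WT. No gene of these lists was called between KO and WT in either tissue.

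**Figure D5:**
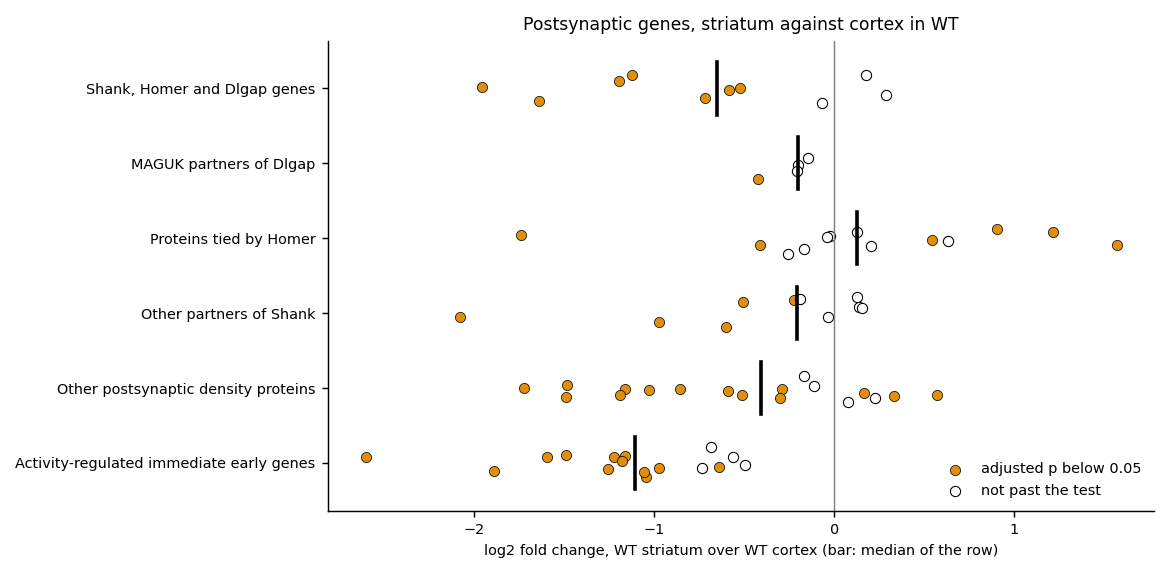
Log2 fold change of WT striatum over WT cortex for the 10 scaffold genes and for 5 lists of related genes (a point for each gene, filled where the adjusted p is below 0.05, with a bar at the median of each list). The scaffold genes run from -1.96 for Shank1 to 0.29 for Shank3, and the proteins tied by Homer lie on both sides of 0.

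Shank3 and Shank1 had the most positive and the most negative WT tissue difference of the 10 genes, and the genes most like each were sought by the root mean square difference of mean-centred log2 counts over the 15 libraries, among 11772 genes with a mean count of at least 100. The nearest to Shank3 were Gpr37l1, an orphan receptor of astrocytes (0.113), Gramd3 (0.126), Hcn2, a pacemaker channel (0.127), Dazap2 (0.129) and Bnip3l, a mitophagy receptor (0.130). The measure is not scaled to a gene's spread, so for a gene with small differences, such as Shank3, it also picks genes with small differences. Limma called Gpr37l1 and Gramd3 between tissues in neither genotype, and Hcn2, Dazap2 and Bnip3l only in WT (log2 fold change 0.40, 0.19 and 0.19). The nearest to Shank1 were Ncald, the calcium sensor neurocalcin delta (0.163), Olfm1, the secreted glycoprotein noelin (0.185), Faah, the hydrolase of anandamide (0.225), Tmem145 (0.226) and Cnih3, an AMPA receptor auxiliary subunit (0.237). Within the 10 genes, the closest pairs by this measure were Homer1 with Dlgap2 (0.2436), Shank1 with Dlgap1 (0.2445) and Shank2 with Homer2 (0.251), and Shank3 was nearest to Dlgap3 (0.264).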

How the data were processed

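Per the labels' protocols, total RNA was purified on columns and used for NEBNext Ultra RNA libraries. Tools listed in the submitters' processing notes, with no role attached, are TopHat2 2.1.1 and HTSeq 0.6.0, besides DESeq2 1.12.4, cutadapt 1.1 and FastQC 0.11.5, and the build is GRCm38. Each cell of the deposited table is a normalized signal value, a gene's reads in a library over that library's size factor; 100% of the values came out whole (tolerance 0.001) and gave back reads. Fold changes are on the scale log2(normalized count + 1).

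Genes with at least 10 normalized counts in at least 3 libraries (17030 of 26595) were tested with limma 3.58.1 (R 4.3.3, variance trend, 4 group means over 15 libraries, 11 residual degrees of freedom) in 5 comparisons, with Benjamini-Hochberg adjustment over all genes and a threshold of 0.05. The script was tested on simulated data. The settings tried were other pseudocounts, filters, scalings and weights, voom, edgeR 4.0.16 and DESeq2 1.42.0 on recovered reads, a replicate block, a length correction and libraries left out. GENCODE M21 gave positions and exon lengths (union of exons) and matched 99.0% of gene identifiers; RefSeq gave promoters. All 10 scaffold genes are named in each comparison; of each related list, up to 4 called genes with the largest WT tissue difference and a mean count of at least 20 are named, except an item that is not reported here. The scaffold genes, lists and tests were chosen with earlier results of these data known.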

Additional observations from a re-analysis of the deposited data

Results flagged for a closer look

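In 2 of the 30 groups of 4 libraries examined, 1 library stood far from the others by Dixon's test at the 95% level, and chance marks about 1 in 20 such groups. Homer2 in WT cortex replicate 7 was at 3236 normalized counts, with the other WT cortical libraries at 2517 to 2617, and the gap to its neighbour was 0.861 of the range. Homer3 in WT cortex replicate 8 was at 286 normalized counts, with the others at 156 to 176, a gap of 0.849 of the range. Homer3 is the gene that overlaps Ddx49 on the other strand.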

How the results depend on the processing

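The 1580 values compared over the settings tried for the 10 genes gave 1501 with the same direction and side of the threshold, 17 that lost the call, 8 that gained it and 54 of opposite sign. The number of genes called stayed at 6 to 8 for WT striatum over cortex, at 7 to 8 for KO striatum over cortex and at 0 in the other comparisons, under each setting. Leaving out 1 library at a time gave 6 to 8 genes in WT and 7 in KO. The 17 lost calls were all Homer1 in WT, and the calls gained were 7 for Shank3 in WT and 1 for Dlgap3 in KO. No value that changed sign had been called. Over all genes, the number called between KO and WT striatum was 13, and it was 320 with DESeq2, 3 with voom, 35 with sample weights, 22 with no filter, 0 with the 2 groups fitted alone, 517 without KO striatum replicate 4, 187 without WT striatum replicate 8, 862 without both of these and 344 without KO striatum replicate 4 and WT striatum replicate 5. The cause of these differences was not tested. Each library held 22990233 reads or more, and the part of read counting in the spread between libraries was not tested. Limma took 1 spread per gene over all 4 groups, so intervals with the 3 KO striatal libraries are wider only through their number. Group spreads differed: the SD of Dlgap2 was 4.76% of its mean in KO cortex and 40.9% in KO striatum. Intervals and p-values thus do not reflect the spread of the compared groups alone.

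Same-numbered cortical and striatal libraries deviated together with correlations across genes of 0.142, 0.115 and 0.0881 in KO and 0.0942, 0.0629, 0.00369 and 0.0882 in WT. Not every pair exceeded 0.1, and KO striatum replicate 3 correlated more with KO cortex replicate 1 (0.127), so the libraries were not treated as paired. WT striatum replicate 7 also correlated more with another number, WT cortex replicate 6 (0.0308). KO striatum replicates 2 and 4 and WT striatum replicates 5, 6 and 8 correlated most with the cortical library of their own number. Each of the 7 same-number correlations was above 0, and whether a number marks 1 animal is not given by the labels. With the replicate block as a random term 7 genes were called in KO and 7 in WT. The fit with the block as a fixed term left out KO cortex replicate 1, whose number has no striatal library. It called 7 genes in KO and 7 in WT, where Homer1 was lost (adjusted p = 0.0648) and Shank3 gained (adjusted p = 0.0186). Without KO cortex replicate 1 and with no block, Homer1 was lost too (adjusted p = 0.0533). Homer3 was at -0.030 for the difference of KO effects in both of these fits.

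Log2 values of opposite sign were as follows, with the cause not tested. With sample weights, Shank2 was at 0.032 and Shank3 at 0.043 for KO over WT cortex, Dlgap4 at 0.0078 for KO over WT striatum and Shank3 at -0.10 for KO striatum over cortex. Dlgap2 for KO over WT cortex was at -0.0028 with voom and at -0.0030 with edgeR. With the length trend removed, Dlgap1 was at -0.030 and Dlgap2 at -0.013 for KO over WT cortex. Without both KO striatum 4 and WT striatum 8, Homer3 was at -0.093 for KO over WT striatum, Dlgap3 at 0.035 for WT striatum over cortex, Shank3 at -0.16 and Homer3 at -0.15 for KO striatum over cortex, and Homer3 at -0.27 and Dlgap4 at -0.011 for the difference of KO effects. Without both KO striatum 4 and WT striatum 5, Homer2 was at -0.059, Homer3 at -0.094 and Dlgap2 at 0.023 for KO over WT striatum, Shank3 at -0.16 and Homer3 at -0.15 for KO striatum over cortex, and Homer2 at -0.20, Homer3 at -0.27, Dlgap2 at 0.022 and Dlgap4 at -0.024 for the difference of KO effects.

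With 1 library left out at a time, values for KO over WT cortex ran from -0.083 to 0.019 for Shank2, -0.066 to 0.044 for Shank3, -0.14 to 0.37 for Homer3, -0.031 to 0.034 for Dlgap2 and -0.050 to 0.024 for Dlgap4. For KO over WT striatum they ran from -0.15 to 0.61 for Homer3 and -0.057 to 0.040 for Dlgap4. For KO striatum over cortex they ran from -0.16 to 0.14 for Shank3 and -0.15 to 0.62 for Homer3, and for WT striatum over cortex from -0.18 to 0.045 for Dlgap3. For the difference of KO effects they ran from -0.0075 to 0.46 for Homer2, -0.33 to 0.44 for Homer3 and -0.039 to 0.058 for Dlgap4.

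The longest annotated transcript as length, chosen after the data were seen, left Dlgap3 first in WT cortex and in both striatal groups and put Dlgap1 first in KO cortex. It moved Shank1 from rank 2 to rank 3 in both cortical groups, below Dlgap1 and Dlgap3. Shank3 moved from rank 2 to rank 3 in KO striatum, below Dlgap4 (1063 against 1134.5 per kilobase), and stayed at rank 2 in WT striatum.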

Other observations

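Since Homer1 also makes an immediate early isoform, 16 other immediate early genes of neuronal activity were examined, and most were lower in striatum. In KO, 11 of the 16 were lower in striatum and none was higher, and in WT 12 were lower and none was higher, where 19.5% of all genes were called lower in KO and 25.7% in WT (median log2 fold change -1.21 in KO and -1.11 in WT). Arc, a regulator of AMPA receptor traffic, had 1635 ± 177 normalized counts in KO striatum, 1709 ± 536 in WT striatum, 6923 ± 2189 in KO cortex and 5426.5 ± 2391 in WT cortex (SD), and its log2 fold change was -2.02 in KO (adjusted p = 0.00033) and -1.60 in WT (adjusted p = 0.000676). Nr4a2 was at -1.22 in KO (adjusted p = 0.0394) and -2.60 in WT (adjusted p = 0.000103), Npas4 at -1.67 in KO (adjusted p = 0.0276) and -1.89 in WT (adjusted p = 0.00703), and Fos at -1.05 (adjusted p = 0.089) in KO and -1.49 in WT (adjusted p = 0.0101). All 16 had a log2 fold change of KO over WT cortex above 0 (median 0.27), and limma called 0.

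In cortex, Homer1 was at 6816 normalized counts in KO cortex replicate 2 and at 6885 in WT cortex replicate 6, where the 16 genes summed to 18969.5 and 21637 counts. In the other KO cortical libraries Homer1 was at 9715 to 11027 and the sum at 32531 to 36239. In the other WT cortical libraries Homer1 was at 8465 to 9907 and the sum at 17560.2 to 38363, and WT cortex replicate 5 had the lowest sum with a Homer1 count of 8465. A correlation was not computed, and the part of the immediate early genes in the Homer1 values was not tested.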
